A study of Mus musculus with 6 samples.

Results

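Collagen chain transcripts were measured by RNA sequencing in primary cultures of mouse renal tubular epithelial cells (RTECs), with and without TGF-β1. The members were the protein-coding genes whose symbol is Col, a number, the letter a and a number, and 44 of the 46517 genes in the count files met this rule. They were grouped by the structure that their product builds, into 11 fibrillar chains, 8 basement membrane chains, 9 FACIT chains (fibril-associated collagens with interrupted triple helices) and 16 other chains. Of the 44 members, 33 had enough counts to be tested and 11 did not.

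Collagens are extracellular proteins in which 3 chains wind around each other in a triple helix. A chain can do so because glycine, the smallest residue, recurs at a fixed step along it, each time followed by a pair of other residues. Most fibrillar collagens have 1 long, unbroken helix, and the class assembles into the cross-linked fibrils of connective tissue and scar. Type IV collagen has a helix with many interruptions and forms the sheet-like network of the basement membrane on which tubule cells rest. TGF-β1 is a secreted growth factor known in the kidney as an inducer of matrix genes, through SMAD transcription factors.

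Cells were isolated by collagenase digestion from kidneys of wild-type FvB mice, aged 4 to 6 weeks in the labels and somewhat younger in the study's methods, and were grown in medium with serum and EGF. At 70% confluence all cultures went into serum-free medium for 24 h. CTL denotes 3 control cultures, and TGF-β1 denotes 3 cultures then given 50 ng/ml TGF-β1 for 24 h. The sources do not say whether cultures came from separate mice or from pools. Y-linked transcripts, given below, were nearly absent outside replicate 2 of both groups, so the cultures did not all share a single pool. The p-values measure the spread between these cultures, which can include differences between animals and may be partly technical.

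Counts on genes summed to between 28313080 and 34183497 per library. Of known TGF-β1 target genes, Fn1 and Skil rose by 1.04 and 0.76 on the log2 scale (adjusted p = 0.00379 for both, edgeR), and Smad7, Ltbp2 and Snai1 also rose. Ccn2 and Tgfbi did not pass (log2 fold change 0.18 and -0.18, adjusted p = 0.22 and 0.747, edgeR), and Ccn2 passed with the replicate block described below (adjusted p = 0.0437, edgeR). All 8 tubule epithelium markers passed the filter on low counts, and their summed level ran from 963 to 2839 CPM (counts scaled by the TMM-adjusted library total). Markers of endothelium (6 genes) summed to 0.915 to 2.88 CPM and those of leukocytes (6 genes) to 4.22 to 9.30 CPM, and no marker was at 0 in all 6 libraries. Replicate 2 stood apart from replicates 1 and 3 in both groups. The summed level of 11 fibroblast and pericyte markers was 339.5 (CTL) and 304.4 CPM (TGF-β1) in replicate 2, against 120.0 to 173.7 CPM in the other 4 libraries. Pdgfrb and Cspg4 gave most of this sum. Only 5 of the 11 markers were higher in both replicate 2 libraries than in the other 4. Thy1 was lowest in replicate 2, with 14 raw reads in each group against 35 to 75 elsewhere. The tubule marker sum was lowest in replicate 2, at 1120.1 and 962.6 CPM against 1882 to 2839, as were Epcam, Cdh1, Krt8, Krt18 and Krt19. Pax8, Pax2 and Cdh16 were not lowest in CTL 2, where Pax8 was the highest of the CTL cultures. Among the TGF-β1 cultures, Pax8 and Cdh16 were lowest in replicate 2. 4 Y-linked genes summed to 151.1 and 142.0 CPM in replicate 2 and to at most 0.172 CPM elsewhere, although the study's methods name male mice. Xist was at 237.4 and 206.9 CPM in replicate 2 and at 516.4 to 633.9 CPM in the other 4 libraries. In bulk RNA, fewer cells of a type and less RNA per cell cannot be told apart. Counts of calls are therefore also given without replicate 2.

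The repeat that defines the family can be read in the coding sequence. Of the coding exons of the 11 fibrillar genes, 47.0% (305 of 649) were exactly 54 bases long, against 4.2% (16 of 377) in the 8 basement membrane genes, 25.3% in the FACIT genes and 7.2% in the other genes. The longest unbroken run of glycine triplets, counted as GGN codons at every step of 3 codons, had a median of 338 triplets in the fibrillar genes (range 216 to 344). In the basement membrane genes its median was 41 (range 30 to 66). To show this shared unit in chains of different classes, 1 exon of 54 bases is printed below for 4 members whose transcripts passed the test described later, with the GGN codons in capitals (GRCm38, sense strand). They lie at chrX:141575988-141576041 (plus strand, coding exon 7 of 53), chrX:141216444-141216497 (minus strand, coding exon 13 of 45), chr9:20801068-20801121 (minus strand, coding exon 15 of 67) and chr3:130517684-130517737 (plus strand, coding exon 13 of 37). Each holds 6 glycine codons at the same spacing, and the bases between them differ.
Col4a5 coding exon: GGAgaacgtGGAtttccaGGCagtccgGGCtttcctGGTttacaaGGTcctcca
Col4a6 coding exon: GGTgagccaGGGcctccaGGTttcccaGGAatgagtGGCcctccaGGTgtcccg
Col5a3 coding exon: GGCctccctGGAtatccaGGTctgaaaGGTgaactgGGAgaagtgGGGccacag
Col25a1 coding exon: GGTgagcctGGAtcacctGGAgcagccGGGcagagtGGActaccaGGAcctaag

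**Figure D1:**
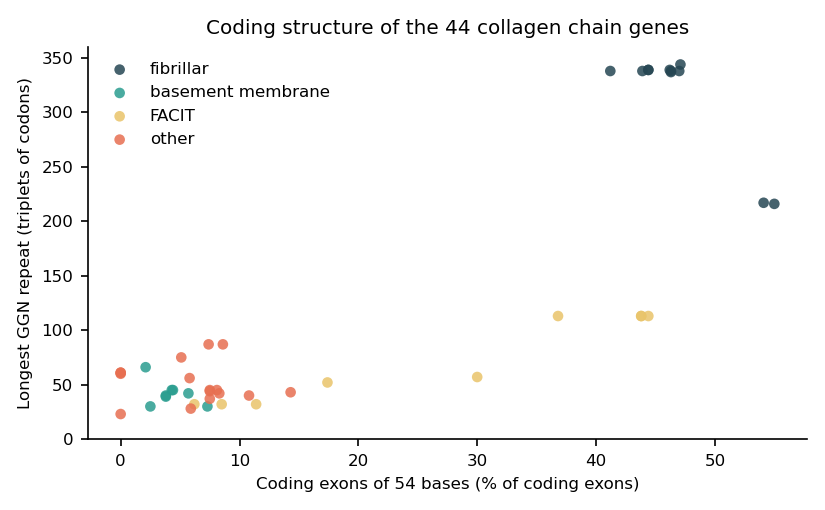
Each point is 1 of the 44 collagen chain genes, placed by the share of its coding exons that are 54 bases long (x axis, %) and by its longest run of GGN triplets (y axis, number of triplets), coloured by class. The fibrillar genes form a group apart at 216 to 344 triplets, while the basement membrane genes sit at 30 to 66.

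Basement membrane chains were the most abundant collagen transcripts of these cultures. On a scale of CPM per kb of exon, CTL cultures held 350 ± 85.3 of Col4a1 (mean ± SD, n = 3) and 218 ± 59.5 of Col4a2, the chains of the most widespread type IV network. Col18a1, the precursor of endostatin, followed at 146 ± 28.5, Col1a1 at 128 ± 82.7 and Col4a3 at 110 ± 18.6 CPM per kb. The ranges of mean ± SD of neighbours overlap all along this order, although Col4a1 was above Col4a2 in each of the 6 libraries. The exon length joins all annotated exons of a gene (12426 bases for Col1a2 and 6563 for Col1a1). It can exceed the expressed transcript, so the order also depends on the annotation. After TGF-β1, Col4a1 stood at 258 ± 51.7 and Col4a2 at 154 ± 34.5 CPM per kb. Fibrillar chains then lay among them, with Col1a1 at 164 ± 102, Col5a2 at 141 ± 68.9 and Col5a1 at 136 ± 77.3 CPM per kb. At the other end, Col25a1 and Col14a1 were near the limit of detection in 1 group each, as given below.

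**Figure D2:**
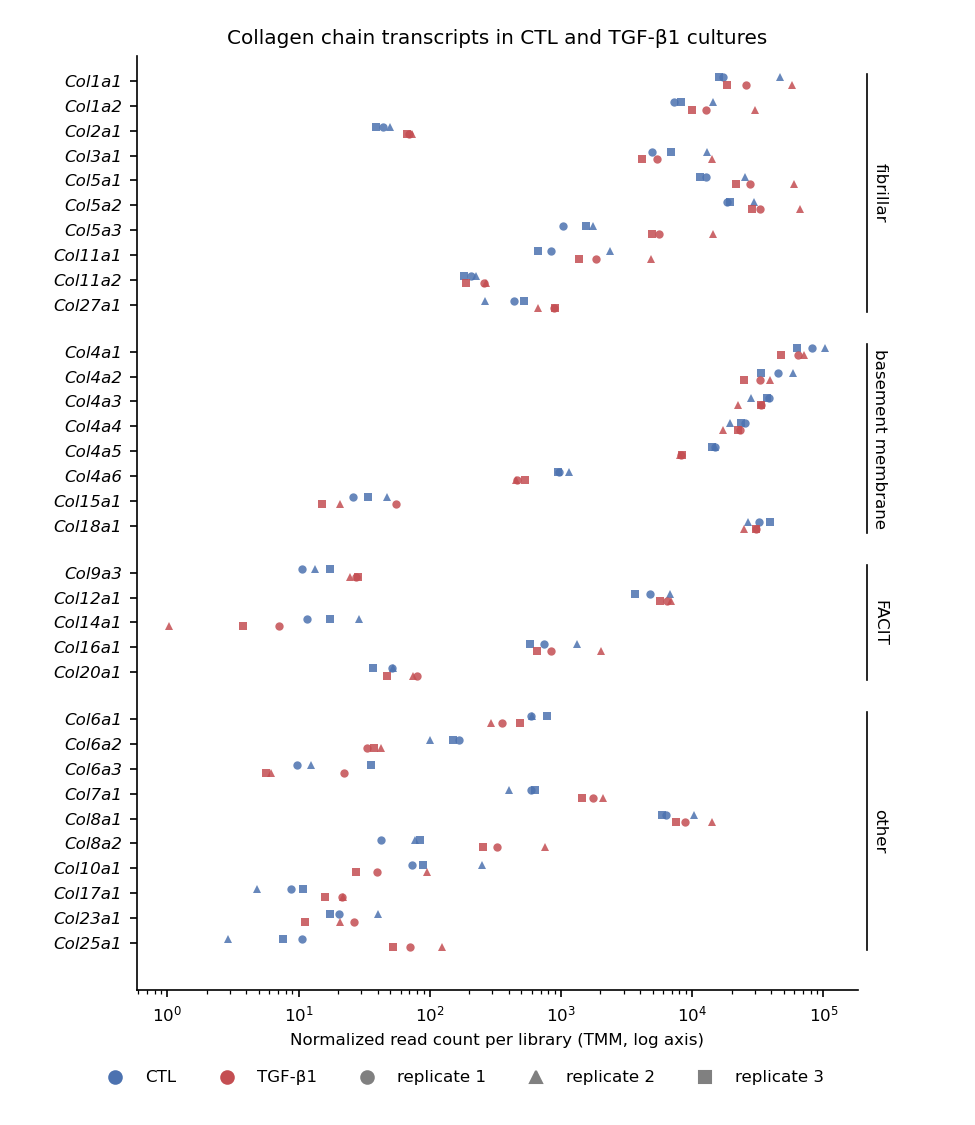
Normalized read counts (log axis) of the 33 tested members in each of the 6 libraries, CTL in blue and TGF-β1 in red, with the replicate number as the point's shape. Col4a5, Col4a6, Col5a3, Col7a1 and Col8a2 show 2 separate groups of points, while Col1a1 and Col3a1 have both replicate 2 libraries above the other 4.

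To find which chains responded to TGF-β1, the groups were compared with edgeR's quasi-likelihood test across 15862 genes, with Benjamini-Hochberg adjustment and a threshold of 0.05. Normalized counts are counts scaled by TMM to the geometric mean library size, and fold changes are TGF-β1 against CTL. 5 members rose, Col2a1, Col5a3, Col7a1, Col8a2 and Col25a1, beside 5.0% of all tested genes. 3 members fell, Col4a5, Col4a6 and Col6a2, beside 6.69% of all tested genes. The median log2 fold change of the 33 members was 0.33, and that of all tested genes was -0.0028. Same-numbered cultures of the groups deviated together, and with the replicate number as a block 17 members were higher (15.1% of all genes) and 9 were lower (19.1%, with 34.2% in either direction). DESeq2 called 6 members higher (6.37% of the genes it tested) and 5 lower (8.61%). It did not call Col2a1 (adjusted p = 0.0552), and it added Col5a2, Col27a1, Col6a1 and Col14a1 (adjusted p = 0.034, 0.00199, 0.00609 and 0.0262, DESeq2). Without the block, 18 members were higher in all 3 same-numbered pairs (30.4% of all genes) and 11 were lower in all 3 (32.6%). In 8 members every treated culture was above every CTL culture (17.2% of all genes), and in 5 every one was below (18.0%).

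The number of higher members depended on single libraries. It was 0 without CTL 1, 2 without CTL 2, 2 without CTL 3 and 0 without TGF-β1 1, whereas 2 to 4 members were lower in each of the 6 fits that left out 1 culture. Without both replicate 2 cultures, 9 members were higher (6.79% of all genes) and 4 lower (8.09%). With the block as well, 13 were higher (14.3% of all genes) and 8 lower (17.0%). Without both replicate 1 cultures and without the block, 0 members and 0 genes passed in edgeR, with 10 members and 1938 genes at an unadjusted p under 0.05. Without both replicate 3 cultures, 0 were higher (0.593% of all genes) and 2 lower (1.19% of all genes). At an unadjusted p under 0.05 in that edgeR fit, 9 members were higher, as were 1578 of 16023 genes. DESeq2 was not run on these subsets.

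**Figure D3:**
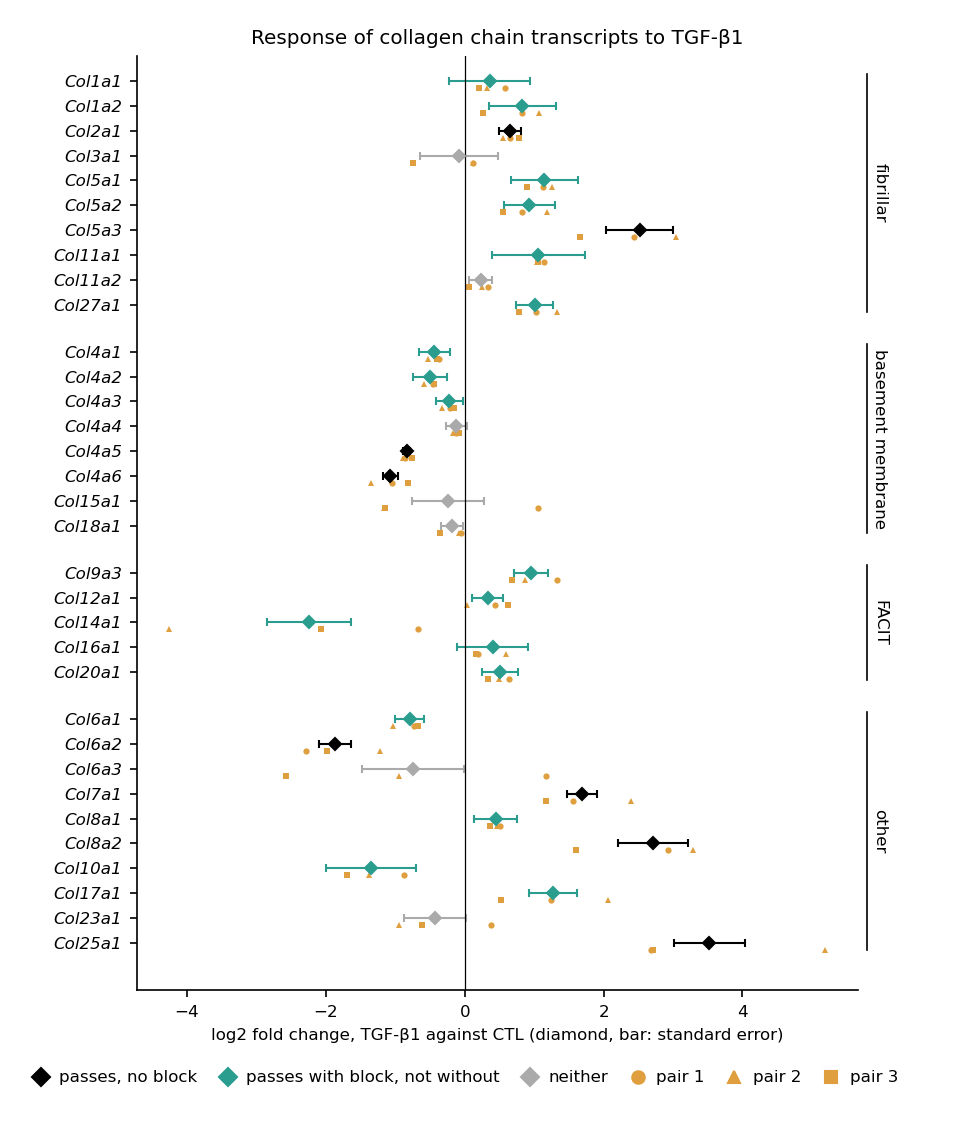
Log2 fold change of each tested member with its standard error (diamond and bar), by class, and the log2 ratio of each same-numbered pair of cultures (orange). Black diamonds passed the test without the block, green ones with the replicate block but not without it, and grey ones in neither. Fibrillar chains lie at or right of 0 and type IV chains left of 0.

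Of the 11 fibrillar chains 10 were tested, 2 rose (5.0% of all genes) and 0 fell (6.69%). With the replicate block 8 of the 10 were higher (15.1% of all genes) and 0 lower (19.1%). Without the replicate 2 cultures 5 were higher (6.79% of all genes), and again 8 with the block (14.3%). Their median log2 fold change was 0.88, and 9 of the 10 were higher in all 3 pairs (30.4% of all genes). Col5a3 had the largest rise among them, and only Col3a1 did not keep 1 direction over the pairs.

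Col5a3 (ENSMUSG00000004098.7, chr9:20770050-20815067, minus strand) encodes a minor chain of type V collagen, a regulator of fibril diameter. It had 1038, 1766 and 1555 normalized counts in CTL cultures 1, 2 and 3 and 5606, 14494 and 4904 in TGF-β1–treated cultures 1, 2 and 3. All 3 treated cultures were above all 3 CTL cultures, with treated culture 2 far above the rest. Col5a3 rose 5.74-fold, a log2 value of 2.52 ± 0.48 (standard error) with an edgeR adjusted p of 0.0276. With the block the log2 value was 2.39 (adjusted p = 0.00123, edgeR). Without TGF-β1 2 it was 1.85 and still passed, but the call was lost without CTL 1, CTL 2, CTL 3 or TGF-β1 1, at edgeR adjusted p-values from 0.0613 to 0.12.

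The main chains of type V collagen had smaller fold changes and, like Col5a3, rose in every pair. Col5a1 gave 12694, 25139 and 11562 normalized counts in CTL and 27702, 60204 and 21485 in TGF-β1–treated cultures. Col5a2 gave 18506, 29355 and 19567 in CTL and 32686, 66775 and 28735 after treatment. For both genes CTL 2 lay within the range of the treated cultures, so the groups overlapped. Log2 fold changes were 1.15 and 0.93 without the block (adjusted p = 0.184 and 0.164, edgeR). With the block Col5a1 was higher by 1.09 (standard error 0.07, adjusted p = 3.53e-05) and Col5a2 by 0.85 (standard error 0.12, adjusted p = 0.00245), both from edgeR.

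Type I collagen, the bulk of scar fibrils, was represented by abundant transcripts. Col1a1 had 17221, 46374 and 16033 normalized counts in CTL and 25626, 58086 and 18459 in TGF-β1 cultures. Col1a2 had 7219, 14392 and 8218 in CTL and 12768, 30354 and 9892 after treatment. The spread between replicate numbers exceeded the step between groups, since CTL 2 held more Col1a1 than 2 of the 3 treated cultures. Neither passed without the block (log2 fold change 0.36 and 0.83, adjusted p = 0.737 and 0.322, edgeR). Within pairs Col1a1 was higher by 0.57, 0.32 and 0.20 and Col1a2 by 0.82, 1.08 and 0.27 on the log2 scale, and with the block both passed (adjusted p = 0.00628 and 0.0144, edgeR). Leaving out TGF-β1 2 alone turned the unblocked Col1a1 value to -0.27. The fibroblast marker sum given above was also highest in replicate 2, and its part in these levels was not tested.

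Col3a1, the chain of type III collagen that accompanies type I in soft tissues, had 4938, 12995 and 6926 normalized counts in CTL and 5376, 14078 and 4136 in TGF-β1 cultures. Its pairs went in both directions (0.12, 0.12 and -0.74), and it passed neither test (adjusted p = 0.949 without the block and 0.529 with it, edgeR). Its share of all fibrillar counts was 9.4% ± 1.43 in CTL and 5.00% ± 0.56 in TGF-β1 cultures (SD, n = 3), values that describe the mix and do not show a change in Col3a1 itself.

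The cartilage-type fibrillar chains were at low to moderate levels. Col2a1, the main cartilage collagen, had 44.4, 50.0 and 39.2 normalized counts in CTL and 70.1, 73.5 and 67.6 after TGF-β1, with no overlap. Its rise of 0.66 on the log2 scale was just inside the threshold (adjusted p = 0.0476, edgeR), and it did not pass in any of the 6 fits that left out 1 culture. Col11a1, a chain of type XI collagen that nucleates fibrils, had 841, 2384 and 663 in CTL and 1856, 4894 and 1376 in TGF-β1 cultures. Although its groups overlapped, its pairs were nearly identical (1.14, 1.04 and 1.05), and with the block it was higher by 1.08 (adjusted p = 5.85e-06, edgeR), against an adjusted p of 0.357 without. Col27a1, a fibrillar chain of growing cartilage, had 436, 263 and 520.1 in CTL and 889, 664 and 896 in TGF-β1 cultures without overlap. It passed with the block (log2 fold change 1.03, adjusted p = 0.00024, against 0.0625 without, edgeR), and without the block once both replicate 2 cultures were left out (adjusted p = 0.00528, edgeR). Replicate 2 was the lowest culture of each group for Col27a1, the reverse of Col11a1. Col11a2 passed in neither fit.

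All 8 basement membrane chains were tested. 2 fell (6.69% of all genes) and 0 rose (5.0%), and with the block 5 were lower (19.1%) and 0 higher (15.1%). The counts were the same without the replicate 2 cultures, at 2 (8.09% of all genes) and 5 (17.0%). With all cultures, the 5 were all type IV chains, and the sixth, Col4a4, was lower in all 3 pairs without passing. The median log2 fold change of the 8 was -0.34.

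Col4a5 and Col4a6 had the largest falls of the class, with little spread between cultures. Both encode type IV chains of specialised basement membranes, Col4a5 in the glomerulus and tubule and Col4a6 in Bowman's capsule and smooth muscle among others. Col4a5 (ENSMUSG00000031274.15, chrX:141475385-141689234, plus strand) had 14847, 14872 and 14070.4 normalized counts in CTL and 8196, 8029.7 and 8311 in TGF-β1–treated cultures. The groups were far apart, and replicate 2 did not stand out. Col4a5 fell by 0.84 on the log2 scale (standard error 0.05, adjusted p = 0.0013, edgeR), to a level 1.78-fold lower. Col4a6 (ENSMUSG00000031273.15, chrX:141165403-141474076, minus strand) had 958, 1144 and 945 in CTL and 461, 451 and 536 after TGF-β1. It fell by 1.07 (standard error 0.11, adjusted p = 0.00516, edgeR), or 2.1-fold. These were the members whose calls held in all 6 fits that left out 1 culture, at edgeR adjusted p-values of at most 0.0201 and 0.0403, and both also passed without the replicate 3 cultures (adjusted p = 0.0258 and 0.0353, edgeR) but not without the replicate 1 cultures (adjusted p = 0.212 and 0.232, edgeR).

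The 6 type IV genes lie in 3 pairs that point away from each other. The annotated starts of Col4a5 and Col4a6 are 1308 bases apart on chromosome X, those of Col4a3 and Col4a4 have 71 bases between them on chromosome 1, and Col4a1 and Col4a2 overlap by 22 bases on chromosome 8. Their start regions are printed because all 6 genes were lower in all 3 same-numbered pairs of cultures, as were 32.6% of all genes. In the RefSeq promoter windows of 300 bases (250 before and 50 after the start, GRCm38.p6, sense strand), capitals mark the GC-box core GGGCGG or its reverse complement CCGCCC. The windows are chrX:141475169-141475468 (plus strand) and chrX:141474027-141474326 (minus strand).
Col4a5 promoter: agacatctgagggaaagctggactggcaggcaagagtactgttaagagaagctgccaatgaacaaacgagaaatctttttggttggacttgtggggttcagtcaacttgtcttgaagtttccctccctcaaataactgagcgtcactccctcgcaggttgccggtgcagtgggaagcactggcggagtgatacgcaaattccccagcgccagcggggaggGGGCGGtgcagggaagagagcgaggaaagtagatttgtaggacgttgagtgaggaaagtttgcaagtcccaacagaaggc
Col4a6 promoter: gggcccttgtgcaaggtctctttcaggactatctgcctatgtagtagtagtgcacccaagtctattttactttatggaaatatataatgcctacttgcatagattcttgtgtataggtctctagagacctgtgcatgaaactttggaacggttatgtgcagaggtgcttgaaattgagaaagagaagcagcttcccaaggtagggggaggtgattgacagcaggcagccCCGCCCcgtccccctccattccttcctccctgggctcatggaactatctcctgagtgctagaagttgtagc
In the Col4a4 window (chr1:82586800-82587099, minus strand) capitals mark the 71 bases between the starts of Col4a4 and Col4a3, and in the stretch shared by the Col4a1 and Col4a2 windows (chr8:11312777-11312854, plus strand) they mark the 22 bases within both genes.
Col4a4 promoter: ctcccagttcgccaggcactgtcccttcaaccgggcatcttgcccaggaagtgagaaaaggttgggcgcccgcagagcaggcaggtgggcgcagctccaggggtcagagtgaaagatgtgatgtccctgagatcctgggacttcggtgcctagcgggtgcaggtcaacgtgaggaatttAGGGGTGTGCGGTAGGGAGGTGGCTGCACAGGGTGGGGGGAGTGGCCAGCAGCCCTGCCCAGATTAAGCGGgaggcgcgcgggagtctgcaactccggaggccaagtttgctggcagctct
Col4a1 and Col4a2 shared stretch: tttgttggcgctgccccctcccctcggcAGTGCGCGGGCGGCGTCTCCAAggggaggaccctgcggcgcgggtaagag
The windows of Col4a5 and Col4a6 each hold 1 GC-box core.

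Col4a1 and Col4a2 were lower in every pair. Col4a1 had 82406, 103215 and 62892 normalized counts in CTL and 63636, 71716 and 47703 in TGF-β1 cultures, and Col4a2 had 45275, 58422 and 33513 in CTL and 33092, 39041 and 24666 after treatment. CTL 3 was below treated culture 2 for both, so the groups overlapped. Without the block neither passed (adjusted p = 0.26 and 0.247, edgeR). With it Col4a1 was lower, at -0.43 on the log2 scale (SE 0.06, adjusted p = 0.000884), as was Col4a2, at -0.49 (SE 0.05, adjusted p = 0.000349, edgeR). Col4a3, the chain that carries the Goodpasture antigen, had 38668, 27847 and 37159 in CTL and 33372, 22287 and 33328 in TGF-β1 cultures, with replicate 2 lowest in both groups. It passed with the block (log2 fold change -0.23, adjusted p = 0.0123, against 0.525 without, edgeR). Of its exon bases, 5.65% overlap a gene on the opposite strand, and whether counting used the strand is not given in the sources used here.

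The multiplexins, which sit in basement membranes and release antiangiogenic fragments, passed in neither fit. Col18a1 had 32063, 26403 and 39034 normalized counts in CTL and 30739, 24843 and 30562 in TGF-β1 cultures, with overlapping groups (log2 fold change -0.18, adjusted p = 0.519 without the block and 0.0914 with it, edgeR). Col15a1 was scarce, with 26.1, 47.1 and 33.8 in CTL and 54.9, 20.7 and 15.0 after TGF-β1, and its pairs went in both directions (adjusted p = 0.801, edgeR).

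Of the 9 FACIT chains, which decorate the surface of fibrils, 5 were tested and 0 passed without the block (11.7% of all genes). At an unadjusted p under 0.05, Col9a3 and Col14a1 passed in edgeR, as did 4529 of 15862 genes. DESeq2 called Col14a1 lower. With the block 4 were higher (15.1% of all genes) and 1 lower (19.1%). Without the replicate 2 cultures, however, 1 was higher (14.3% of all genes) and 0 lower (17.0%) with the block, and 0 passed without it. Col12a1, found in tissues under tension, made up 84.1% ± 1.55 of the FACIT counts in CTL (SD, n = 3) and had 4753, 6735 and 3689.9 normalized counts in CTL and 6461, 6915 and 5702 in TGF-β1 cultures. The groups overlapped, and with the block it passed narrowly (log2 fold change 0.37, adjusted p = 0.0491, against 0.382 without, edgeR). Col16a1, a minor fibril-associated chain, had 737, 1334 and 584 in CTL and 844, 2023 and 652 in TGF-β1 cultures. Its replicate 2 cultures were the highest of each group (adjusted p = 0.0265 with the block, 0.655 without, edgeR).

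The remaining tested FACIT chains had few reads. Col9a3, of cartilage type IX collagen, had 10.6, 13.5 and 17.4 normalized counts in CTL and 27.4, 24.9 and 28.2 in TGF-β1 cultures without overlap (adjusted p = 0.0228 with the block, 0.055 without, edgeR), and 6.07% of its exon bases overlap a gene on the opposite strand. Col20a1 had 51.2, 52.9 and 37.1 in CTL and 80.2, 74.6 and 46.9 after treatment, with overlap (adjusted p = 0.0437 with the block, 0.263 without, edgeR). Col14a1, a chain that regulates fibril growth, had 12, 30 and 16 raw reads in CTL and 7, 1 and 4 in TGF-β1 cultures. Every treated culture was below every CTL culture, but treated culture 2 rests on 1 read. Its log2 fold change was -2.22 with the block (adjusted p = 0.0199, against 0.0644 without, edgeR). With reads this near the floor of 3 counts per library (0.0878 to 0.106 CPM), the fold change of Col14a1 is imprecise.

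The 16 other chains included 10 that were tested, of which 3 rose (5.0% of all genes) and 1 fell (6.69%). With the block 5 were higher (15.1% of all genes) and 3 lower (19.1%). Without the replicate 2 cultures 4 were higher (6.79% of all genes) and 2 lower (8.09%), or 4 (14.3%) and 3 (17.0%) with the block. They include Col25a1 and Col6a2, the largest rise and the largest fall among the members that passed in edgeR without the block.

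Col25a1 (ENSMUSG00000058897.16, chr3:130131501-130599877, plus strand), a membrane-spanning collagen best known from neurons and motor innervation, went from 11, 3 and 7 raw reads in CTL to 70, 119 and 56 in TGF-β1–treated cultures. CTL 2 was at the floor of 3 counts, and the treated cultures were all above 50 normalized counts. It rose by 3.52 on the log2 scale, the highest value of the 33 members, with a standard error of 0.51 and an edgeR adjusted p of 0.0125. Its size is imprecise for a transcript this rare, and the call was lost without CTL 1 or TGF-β1 1 (adjusted p = 0.0557 and 0.0566, edgeR). Col17a1, a transmembrane chain of hemidesmosomes, which anchor epithelium, had 8.69, 4.81 and 10.9 normalized counts in CTL and 21.3, 21.8 and 16.0 in TGF-β1 cultures without overlap. It passed with the block (log2 fold change 1.28, adjusted p = 0.0269, against 0.0628 without, edgeR).

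Col7a1 (ENSMUSG00000025650.11, chr9:108953586-108984875, plus strand) encodes the anchoring fibril that ties basement membrane to the stroma below it. This transcript had 594, 400.0 and 638 normalized counts in CTL and 1747, 2096 and 1436 in TGF-β1 cultures. The treated cultures were all more than 2 times any CTL culture, and replicate 2 was lowest in CTL and highest after treatment. Col7a1 rose 3.24-fold (log2 fold change 1.69, standard error 0.22, adjusted p = 0.0102, edgeR). The call was lost without CTL 1 (adjusted p = 0.0557, edgeR) or TGF-β1 1 (adjusted p = 0.0538, edgeR).

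The short-chain collagens, which form hexagonal lattices, went in different directions. Col8a2 (ENSMUSG00000056174.8, chr4:126286793-126314330, plus strand), a chain of the type VIII collagen of cornea and vessel wall, had 42.5, 76.9 and 84.0 normalized counts in CTL and 327, 753 and 255 in TGF-β1 cultures. No treated culture was near the CTL range, and treated culture 2 was again the highest. It rose 6.57-fold (log2 fold change 2.72, standard error 0.50, adjusted p = 0.0254, edgeR), a call lost without CTL 1, CTL 2, CTL 3 or TGF-β1 1 (adjusted p from 0.0578 to 0.106, edgeR). Col8a1, its partner, was far more abundant, with 6276, 10266 and 5852 in CTL and 8889, 14137 and 7495 in TGF-β1 cultures. The groups overlapped, yet the pairs were close to each other (0.50, 0.46 and 0.36), and it passed with the block (adjusted p = 0.00031, against 0.409 without, edgeR). Col10a1, the chain of hypertrophic cartilage, had 73.4, 249 and 89.4 in CTL and 39.6, 95.3 and 27.2 after treatment. It was lower in every pair and passed with the block (log2 fold change -1.33, adjusted p = 0.00079, against 0.237 without, edgeR), with replicate 2 the highest of each group. With both replicate 2 cultures left out, Col8a1 and Col10a1 also passed without the block (adjusted p = 0.0333 and 0.0286, edgeR).

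The start regions of the 3 members with the largest rises, Col25a1, Col8a2 and Col5a3, are printed so that they can be set beside the type IV windows. Capitals mark GGGCGG or CCGCCC, which may overlap, and the windows are chr9:20815018-20815317 (minus strand), chr4:126286544-126286843 (plus strand) and chr3:130180595-130180894 (plus strand).
Col5a3 promoter: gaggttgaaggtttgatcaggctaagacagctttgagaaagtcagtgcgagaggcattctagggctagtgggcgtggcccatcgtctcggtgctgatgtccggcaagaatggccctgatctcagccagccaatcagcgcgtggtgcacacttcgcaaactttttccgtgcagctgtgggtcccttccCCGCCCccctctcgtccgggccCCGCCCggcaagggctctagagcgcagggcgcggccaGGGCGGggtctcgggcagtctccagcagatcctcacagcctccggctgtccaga
Col8a2 promoter: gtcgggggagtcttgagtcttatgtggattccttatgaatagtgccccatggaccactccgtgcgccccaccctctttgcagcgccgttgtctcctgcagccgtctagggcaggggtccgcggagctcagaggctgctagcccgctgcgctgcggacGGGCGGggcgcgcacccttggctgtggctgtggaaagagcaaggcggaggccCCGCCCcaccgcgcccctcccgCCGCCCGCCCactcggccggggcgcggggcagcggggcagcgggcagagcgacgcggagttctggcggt
Col25a1 promoter: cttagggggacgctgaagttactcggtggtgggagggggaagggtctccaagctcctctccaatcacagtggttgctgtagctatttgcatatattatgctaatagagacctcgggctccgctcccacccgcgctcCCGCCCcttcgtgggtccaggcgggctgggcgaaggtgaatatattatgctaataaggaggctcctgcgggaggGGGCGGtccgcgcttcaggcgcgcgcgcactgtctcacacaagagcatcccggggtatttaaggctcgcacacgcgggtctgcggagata
The Col25a1 window lies inside the span that GENCODE gives for that gene, because the RefSeq start differs. The core occurs 3 times in the Col5a3 window, 4 times in that of Col8a2 and 2 times in that of Col25a1. RefSeq windows were found for 35 of the 44 members (38 windows), and 60.5% of them hold the core on either strand, as do 35.7% of all 32851 windows. Their median GC content was 59.8%, and that of all windows was 52.7%. CAGAC, the core of a SMAD binding element, was found on either strand in 52.6% of the collagen windows and 49.6% of all windows. A match describes the letters of this window and is not a bound site.

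Type VI collagen forms beaded filaments around cells, and Col6a1 and Col6a2 are its short chains. Col6a2 (ENSMUSG00000020241.12, chr10:76595762-76623630, minus strand) had 166, 100.0 and 149 normalized counts in CTL and 33.5, 42.5 and 37.5 in TGF-β1 cultures. Its groups did not overlap, and it fell by 1.87 on the log2 scale (standard error 0.24, adjusted p = 0.0089, edgeR), to a level 3.65-fold lower. The call was lost in 1 fit of 6, without TGF-β1 1 (adjusted p = 0.0538, edgeR). Col6a1, its neighbour on chromosome 10, had 589, 603 and 784 in CTL and 354, 293 and 489 in TGF-β1 cultures, also without overlap. It missed the threshold without the block (log2 fold change -0.80, adjusted p = 0.0664) and passed with it (adjusted p = 0.000309, edgeR). Col6a3, the long chain of the same filament, had only 10, 13 and 33 raw reads in CTL and 22, 6 and 6 in TGF-β1 cultures and passed in neither fit, and neither did Col23a1.

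The 11 members that were not tested had at most 13 reads in any library. They were Col6a4, Col6a5, Col6a6, Col9a1, Col9a2, Col13a1, Col19a1, Col22a1, Col24a1, Col26a1 and Col28a1. Col9a1 had 0 reads in all 6 libraries, which allows up to 0.0878 to 0.106 CPM per library by the 3-count limit, for counting error only.

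Summed over each class, the fibrillar chains took 0.205%, 0.429% and 0.211% of all gene counts in CTL cultures 1, 2 and 3. In TGF-β1–treated cultures 1, 2 and 3 they took 0.348%, 0.757% and 0.281%. Each treated culture was above its same-numbered CTL, but CTL 2 was above 2 treated cultures, and the log2 difference of 0.74 between group means had p = 0.3 (two-sided exact permutation test, adjusted p = 0.375 over 5 sums). The basement membrane chains took 0.777%, 0.811% and 0.685% in CTL and 0.594%, 0.556% and 0.522% in TGF-β1 cultures. Here the groups did not overlap, and the log2 difference was -0.37 (p = 0.1, two-sided exact permutation test, the smallest p that 3 cultures against 3 allow, adjusted p = 0.375). FACIT and other sums differed by 0.37 and 0.50 on the log2 scale (p = 0.3 each, exact permutation test). All collagen chains together took 1.026%, 1.305% and 0.935% in CTL and 1.00%, 1.39% and 0.854% in TGF-β1 cultures, with pairs in both directions (log2 difference 0.05, p = 0.9, exact permutation test).

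**Figure D4:**
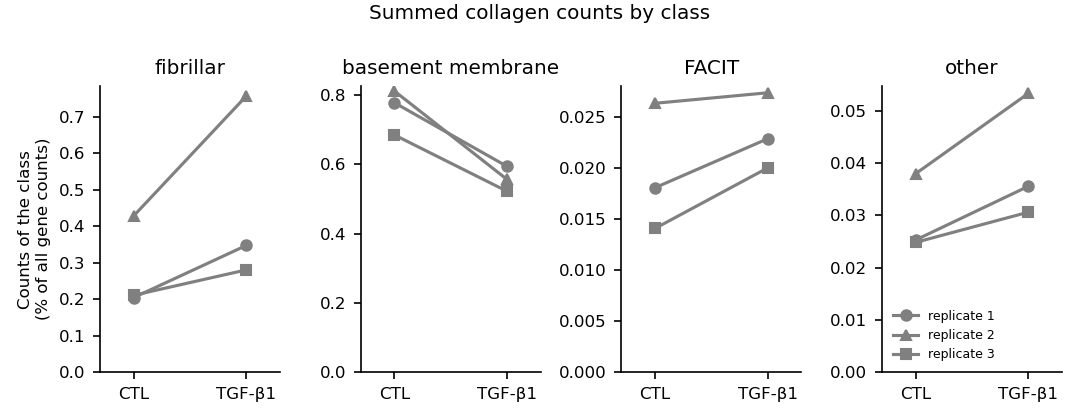
Share of all gene counts (y axis, %, each panel from 0) taken by each class in CTL and TGF-β1 cultures, with lines joining cultures of the same replicate number. The fibrillar lines all rise while replicate 2 lies above the others, and the basement membrane lines all fall.

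Ratios between partner chains were taken within each library, per kb of exon, since these ratios do not depend on library scaling. Their level depends on the annotated exon lengths, whereas the difference between groups does not. The ratio of Col8a1 to Col8a2 was 5.99 ± 0.59 in CTL and 3.82 ± 0.34 in TGF-β1 cultures on the log2 scale (SD, n = 3), so that the geometric mean was 63.7 and 14.1 counts of Col8a1 for each count of Col8a2, per kb. The ratio of Col6a1 to Col6a2 went the other way, from 3.20 ± 0.40 to 4.22 ± 0.47. For both ratios, and for Col4a5 to Col4a6 (4.10 ± 0.13 and 4.33 ± 0.11), the groups did not overlap, and p was 0.1, the smallest possible (two-sided exact permutation test, adjusted p = 0.267 over 8 ratios). Col4a1 to Col4a2 differed little, at 0.69 ± 0.04 in CTL and 0.75 ± 0.04 in TGF-β1 cultures (p = 0.2, exact permutation test). Col1a1 to Col1a2 was 2.22 ± 0.36 in CTL and 1.87 ± 0.05 in TGF-β1 cultures (p = 0.2, exact permutation test), with CTL 2 the highest at 2.61. Col5a1 to Col5a2, Col4a3 to Col4a4 and Col6a3 to Col6a1 had p of 0.3, 0.3 and 1 (exact permutation test). Pair by pair, the Col5a1 to Col5a2 ratio was higher after TGF-β1 by 0.31, 0.07 and 0.34 on the log2 scale. That of Col4a3 to Col4a4 differed by -0.09, -0.15 and -0.08, and that of Col6a3 to Col6a1 went in both directions. The permutation tests did not use the pairing.

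**Figure D5:**
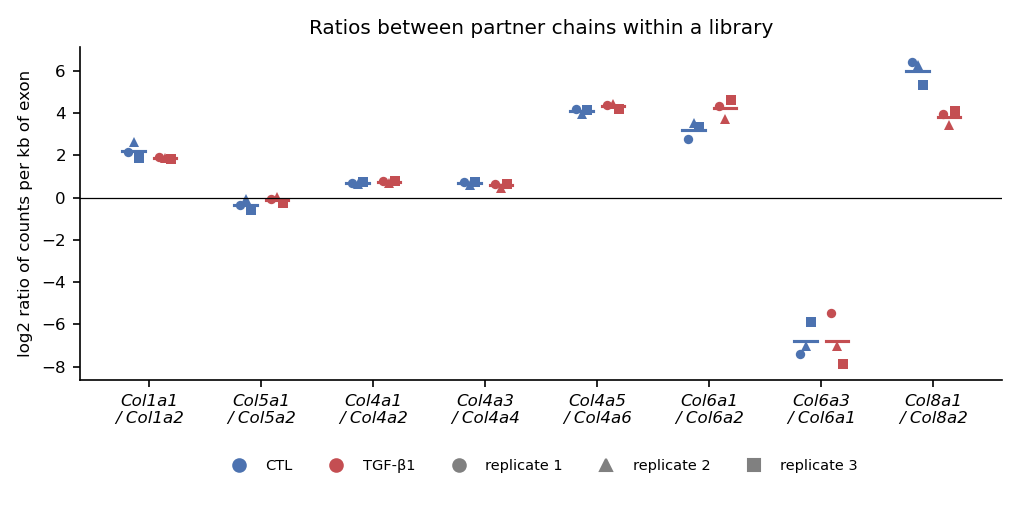
Log2 ratio of counts per kb of exon between partner chains (y axis) in each library, CTL in blue and TGF-β1 in red, with horizontal lines at the group means. The Col8a1 to Col8a2 ratio drops from a mean of 5.99 to 3.82, while Col4a1 to Col4a2 stays between 0.65 and 0.78 in all 6 libraries.

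Chains are made into collagen by enzymes and chaperones of the secretory pathway. Of 22 such genes, all tested, 0 rose and 1 fell in edgeR, with 9 higher and 3 lower with the block. At an unadjusted p under 0.05 in edgeR without the block, 1 was higher, as were 2092 of 15862 genes. Without the replicate 2 cultures 3 rose and 1 fell. Of all tested genes 5.0% rose and 6.69% fell, or 15.1% and 19.1% with the block. Without the replicate 2 cultures these shares were 6.79% and 8.09%. P3h2, a prolyl 3-hydroxylase of basement membrane collagens, had 935, 1233 and 881 normalized counts in CTL and 249.9, 414 and 252 in TGF-β1 cultures. It fell by 1.73 on the log2 scale (adjusted p = 0.0123, edgeR), without overlap of the groups.

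Outside the cell, procollagen ends are cleaved and fibrils cross-linked. Of 13 tested genes for these steps, 2 rose (5.0% of all genes) and 1 fell (6.69%). With the block 7 were higher (15.1% of all genes) and 1 lower (19.1%). Without the replicate 2 cultures 3 were higher (6.79% of all genes) and 1 lower (8.09%). Bmp1, a procollagen C-proteinase, went from 17397, 15470.5 and 14736 normalized counts in CTL to 29582, 26696 and 24158 in TGF-β1 cultures (log2 fold change 0.76, adjusted p = 0.0103, edgeR). Its enhancers went in opposite directions. Pcolce2 rose by 0.95 (adjusted p = 0.0249) and Pcolce fell by 1.68 (adjusted p = 0.0422, edgeR), from 1423 ± 643 to 444 ± 144 normalized counts (SD, n = 3).

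Cells bind collagen through integrins and discoidin domain receptors. Of 8 tested receptor genes, 1 rose (5.0% of all genes) and 1 fell (6.69%). With the block 3 were higher (15.1% of all genes) and 3 lower (19.1%). Without the replicate 2 cultures and without the block, 1 was higher (6.79% of all genes) and 1 lower (8.09%). Itgb1, the beta subunit shared by all collagen-binding integrins, rose by 0.56 on the log2 scale (adjusted p = 0.0228, edgeR), from 121751 ± 5073 to 178987 ± 19643 normalized counts (SD, n = 3). Itga1, an alpha subunit with a preference for type IV collagen, fell by 1.47 (adjusted p = 0.0101, edgeR), from 3966, 4714 and 3370.4 in CTL to 1586, 1123 and 1652 in TGF-β1 cultures. Of 9 tested collagen-cleaving proteases and inhibitors, 0 passed in edgeR (11.7% of all genes in either direction). An unadjusted p under 0.05 in edgeR was reached by 3 of them and by 4529 of 15862 genes. DESeq2 called 2 higher (6.37% of the genes it tested) and 1 lower (8.61%). With the block 4 were higher (15.1% of all genes) and 1 lower (19.1%). Without the replicate 2 cultures 3 were higher (6.79% of all genes) and 0 lower (8.09%).

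Replicate 2 stood apart in some collagen levels as well as in cell markers. In 8 members (Col1a1, Col1a2, Col3a1, Col8a1, Col10a1, Col11a1, Col12a1 and Col16a1) both replicate 2 cultures were above the other 4, as they were for 11.8% of all tested genes. In 3 of the 33 tested members (Col4a3, Col4a4 and Col18a1) both were below the other 4, a smaller share than the 12.3% of all genes. The fibroblast and pericyte marker sum was highest and the tubule marker sum lowest in the same libraries, though not every marker of either list followed. Their part in these levels was not tested. Between the groups the fibroblast and pericyte sum overlapped (120.0 to 339.5 CPM in CTL and 132.5 to 304.4 in TGF-β1). Of its 9 tested genes 0 passed in edgeR without the block. At an unadjusted p under 0.05 in that fit there were 2, beside 4529 of 15862 genes. With the block 1 was higher (15.1% of all genes) and 3 lower (19.1%). With the replicate 2 cultures left out and no block, 0 were higher (6.79% of all genes) and 1 lower (8.09%). Of the tubule markers 2 of 8 fell, Cdh16 and Pax8 (6.69% of all genes), and with the block 6 of 8 were lower (19.1%). With the replicate 2 cultures left out, 2 of 8 were lower (8.09% of all genes), or 5 with the block (17.0%). The 6 podocyte and mesangium markers summed to 450.1 to 688.5 CPM in CTL and 359.4 to 420.2 in TGF-β1 cultures. Of the 4 tested 0 passed in edgeR, and 4 were lower with the block (19.1% of all genes). Leaving out the replicate 2 cultures gave the same counts (17.0% of all genes lower with the block). At an unadjusted p under 0.05, 3 of the 4 passed in edgeR with all cultures, as did 4529 of 15862 genes. Whether these differences have a part in the fall of type IV chains was not tested.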

How the data were processed

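RNA sequencing libraries of 3 CTL and 3 TGF-β1 RTEC cultures were analysed. The authors isolated poly(A) RNA, sequenced single 50-base reads, trimmed them with Trim Galore, aligned them to GRCm38 with STAR 2.4.1d and counted them with HTSeq 0.6.1. The deposited values are raw read counts per gene, without normalization. Reads aligning to several places (18.7% to 19.4% of all counted alignments) or to several genes (1.88% to 1.97%) were left out by that counting, which can undercount genes with close copies.

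Symbols and exon lengths came from GENCODE M21, which matched 46005 of 46517 gene identifiers. Counts were tested with edgeR 4.0.16 in R 4.3.3 (filterByExpr with a minimum count of 10, TMM, robust quasi-likelihood test, two-sided), adjusted over 15862 genes. Standard errors were derived from the F statistic. The study describes no pairing, so the main comparison has no block. Deviations from the group means correlated at 0.445, 0.738 and 0.648 between same-numbered cultures of the labels and at -0.688 to 0.289 between others. The 3 deviations of a group sum to 0 for each gene, so positive values between same-numbered cultures push the others down. Values with the replicate block are given where they change a call. Single values were compared by exact permutation tests. Alternatives were DESeq2 1.42.0, RLE scaling, library size only, no filter beyond 1 count and leaving out cultures. Leaving out both replicate 1 or both replicate 3 cultures, and replicate 2 with the block, was chosen after seeing the data.

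Members and gene lists were chosen with earlier results of these data known. Every member past the threshold in either edgeR comparison, and 10 chains chosen by name, are given per culture, and list genes are named where they pass without the block, at most 5 a list by smallest p. Promoter windows are RefSeq sequences. Col21a1 and protein sequences were not analysed here. Figures were drawn with matplotlib 3.10.9.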

Additional observations from a re-analysis of the deposited data

How the results depend on the processing

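Against 5 higher and 3 lower members, the replicate block gave 17 and 9, and no filter beyond 1 count gave 2 higher. DESeq2 gave 5 lower. Without both replicate 1 cultures there were 0 and 0, and without both replicate 3 cultures 0 higher. Without both replicate 2 cultures there were 9 higher, or 13 higher and 8 lower with the replicate block as well. With single cultures left out, 0 to 4 members rose and 2 to 4 fell. RLE scaling and library size only kept both counts within 1.5 times. All 33 members kept their sign under the block, RLE scaling, library size only, no filter beyond 1 count and DESeq2.

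Signs reversed for some members that did not pass without the block. When 1 culture was left out, log2 fold changes ran from -0.27 to 1.04 for Col1a1, from -0.81 to 0.41 for Col3a1, from -1.67 to 0.0319 for Col6a3, from -0.99 to 0.0822 for Col15a1, from -0.25 to 0.83 for Col16a1 and from -0.71 to 0.0338 for Col23a1. Without both replicate 3 cultures Col3a1 was at 0.12, Col6a3 at 0.37 and Col15a1 at 0.0478, and Col15a1 was at 0.21 without both replicate 2 cultures (0.18 with the block). The cause of these changes was not tested.

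The log2 difference of all collagen counts together was -0.0238 by library size only and -0.0181 without both replicate 2 cultures, and ran from -0.16 to 0.22 when 1 culture was left out. The Col6a3 to Col6a1 ratio ran from -0.68 to 0.55. Other class sums and ratios kept their sign in these fits.

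With the replicate block the lists gave 9 higher and 3 lower for modification and folding, and 7 higher for cleavage and crosslinking. It gave 3 higher and 3 lower for receptors, and 4 higher and 1 lower for proteases and inhibitors. In that fit 15.1% of all genes were higher and 19.1% lower. Without the filter 0 cleavage and crosslinking genes were lower, by library size only 2 receptors were lower, and DESeq2 gave 2 higher and 1 lower protease or inhibitor genes. Depth limits Col6a3, Col14a1, Col17a1 and Col25a1, which had libraries under 10 reads, and the 11 untested members.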
